A study of Arabidopsis thaliana with 20 samples.

Results

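The libraries compared here are the 14 wild-type libraries among the 20 of an Arabidopsis thaliana series on protein occupancy of the plastid genome. They were chosen by their titles, as the 8 leaf libraries and the 6 Col0 seedling libraries. The 6 seedling libraries of the ptac3 mutant were left out of the comparison. Leaf material was rosette leaves of 14-day-old Col0 plants grown on soil in long days, and chloroplasts were isolated first and then crosslinked with 4% formaldehyde for 4 h (4 IPOD and 4 input libraries). Seedling material was whole Col0 seedlings, 4 days old by their labels, grown on agar plates in continuous light, and crosslinked with 4% formaldehyde for 4 h before the chloroplasts were isolated (3 IPOD and 3 input libraries). Tissue, age, growth conditions and the order of crosslinking and isolation therefore differed together between leaf and seedling, and their effects cannot be told apart.

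In vivo protein occupancy display (IPOD) crosslinks protein to DNA, breaks the DNA and recovers the fraction that carries protein, so that sequencing depth in the IPOD library over depth in the total DNA (input) gives the relative protein occupancy of a locus. Plastid genes are transcribed by a bacterial-type polymerase encoded in the plastid, which needs nucleus-encoded sigma factors and serves photosynthesis genes and most tRNA genes, and by a phage-type polymerase encoded in the nucleus, which is known for housekeeping genes such as rpoB, accD and clpP. The plastid-encoded enzyme and its associated proteins take over much of the transcription as chloroplasts mature in light-grown tissue. Each library averages over many plastids, so protein on fewer genome copies and less protein on each copy cannot be told apart.

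The deposited values are read depth at each base of the plastid genome. Leaf IPOD libraries had a mean depth of 54.5 to 1078 and leaf inputs one of 138 to 3383, against 113 to 220 for seedling IPOD libraries and 192 to 441 for seedling inputs. Occupancy is given throughout as the log2 ratio of an IPOD library to the input of the same number, called a pair, for 111 genes and 2564 bins of 50 bp; depth was first divided by the mean of its library, so a ratio of 0 means the average of the plastid genome. In seedling the pairs rest on the number alone, so seedling SDs and counts over pairs depend on that match. The files cover the plastid genome, so the labelled tissue could not be checked against nuclear marker genes. The third Col0 seedling IPOD library is called Col0 in its title and ptac3 in its cell line label, and it was kept by its title. Leaf inputs 1 and 3 stood apart from leaf inputs 2 and 4: over bins, r was 0.94 between inputs 1 and 3 and 0.78 between inputs 2 and 4, and -0.19 to 0.33 across. Leaf inputs 2 and 4 were also the ones like the seedling inputs. With the mean seedling input level, r was -0.17, 0.84, -0.16 and 0.73 for leaf inputs 1 to 4. Of the depth of leaf inputs 1 to 4, rRNA genes held 1.32%, 10.9%, 1.51% and 4.21%, against a share between 8.68% and 11.4% of the seedling inputs. Leaf pair 4 had the flattest profile, with an SD of the ratio over genes of 0.15, against 0.39 to 0.46 in leaf pairs 1 to 3 and 0.19 to 0.32 in the seedling pairs.

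Leaf and seedling shared their broad pattern of occupancy. Most tRNA genes (all 30 in leaf and 27 in seedling) and the 3 rRNA genes had a mean ratio above 0, and most protein-coding genes lay at or below it. Of the 111 genes, 36 had a mean ratio above 0 in both leaf and seedling, 55 below 0 in both, 13 above 0 in leaf and below 0 in seedling, and 7 the reverse. These counts depend on the scaling. With libraries centred on their median bin, 63 genes were above 0 in leaf and 65 in seedling, in place of 49 and 43. Across the 111 genes, r between the leaf mean and the seedling mean was 0.81 (Spearman's rho 0.76), a description over genes of the same libraries. It was 0.71 over the 30 tRNA genes and 0.41 over the 78 protein-coding genes. Over the 2564 bins it was lower, at 0.65 (Spearman's rho 0.54). Taken pair by pair over genes, r with the seedling mean was 0.72, 0.82, 0.74 and 0.35 for leaf pairs 1 to 4. Over bins these values were 0.55, 0.65, 0.57 and 0.09. Between leaf pairs, r over genes ran from 0.14 (pairs 2 and 4) to 0.97 (pairs 1 and 3).

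**Figure D1:**
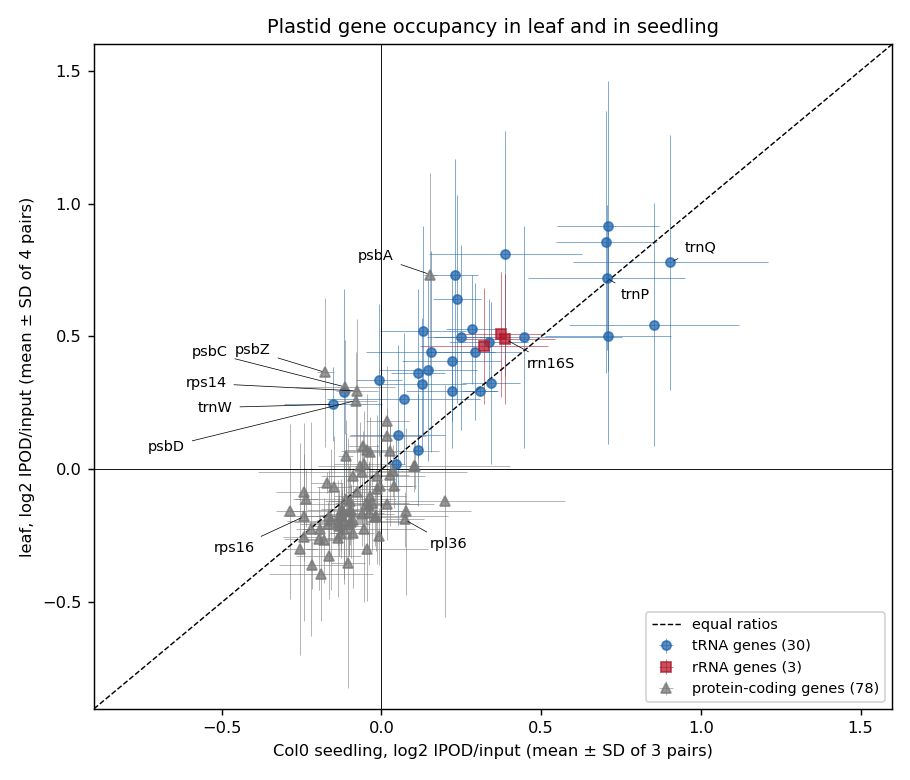
Mean log2 IPOD/input of each of 111 plastid genes in leaf (vertical axis, 4 pairs) and Col0 seedling (horizontal axis, 3 pairs), with bars of 1 SD; circles are tRNA genes, squares rRNA genes and triangles protein-coding genes, and the dashed line marks equal ratios. psbA, psbZ and psbC sit above the line, while trnQ and trnP lie close to it.

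The difference that stood out most in size was at psbA, which encodes the D1 protein of the photosystem II reaction centre. Its ratio was 1.04, 0.78, 0.92 and 0.18 in leaf pairs 1 to 4, against 0.13, 0.16 and 0.17 in seedling pairs 1 to 3. All leaf pairs lay above all seedling pairs, with leaf pair 4 only just above; with each library centred on its median bin the ratios were 1.20, 0.91, 1.08 and 0.19 in leaf and 0.19, 0.30 and 0.21 in seedling, and leaf pair 4 lay among the seedling pairs. The means were 0.73 ± 0.38 in leaf (SD, n = 4) and 0.15 ± 0.02 in seedling (SD, n = 3), a difference of 0.58 or a 1.49-fold higher ratio in leaf. In a limma fit of the 14 libraries the standard error of that difference was 0.21 and the Benjamini-Hochberg adjusted p over all genes was 0.902; with the leaf number as a block the adjusted p was 0.155. Neither passed the threshold of 0.05. Without leaf pair 4 and with the block, the difference was 0.76 and the adjusted p 0.000337. The underlying levels, as depth over the library mean, were 2.02, 1.64, 1.94 and 1.16 for leaf IPOD against 0.93, 0.92, 0.97 and 1.01 for leaf input, and 1.33, 1.38 and 1.35 for seedling IPOD against 1.21, 1.22 and 1.19 for seedling input. The higher ratio in leaf thus went with a higher IPOD level in leaf libraries 1 to 3 and with a lower input level in all leaf libraries.

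Within the psbA locus, leaf pairs 1 to 3 lay above all seedling pairs both beside the gene and inside it. The 150 bp next to the end that faces trnK, the side of the psbA promoter, had ratios of 1.25, 1.54, 1.08 and 0.08 in leaf and 0.83, 0.81 and 0.29 in seedling (positions 1451 to 1600 of the plastid genome, TAIR10). Leaf pair 4 was lowest there, so the groups overlapped. Over the inner part of the gene (401 to 1400) the ratios were 1.03, 0.77, 0.91 and 0.18 in leaf and 0.10, 0.15 and 0.18 in seedling. The groups overlapped inside the gene too, through leaf pair 4 and seedling pair 3. The means beside the gene were 0.99 ± 0.63 in leaf and 0.64 ± 0.31 in seedling, and those over the gene were 0.72 ± 0.38 in leaf and 0.14 ± 0.04 in seedling (SD, n = 4 and n = 3). These segments are described because of the profile and were not tested against each other.

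**Figure D2:**
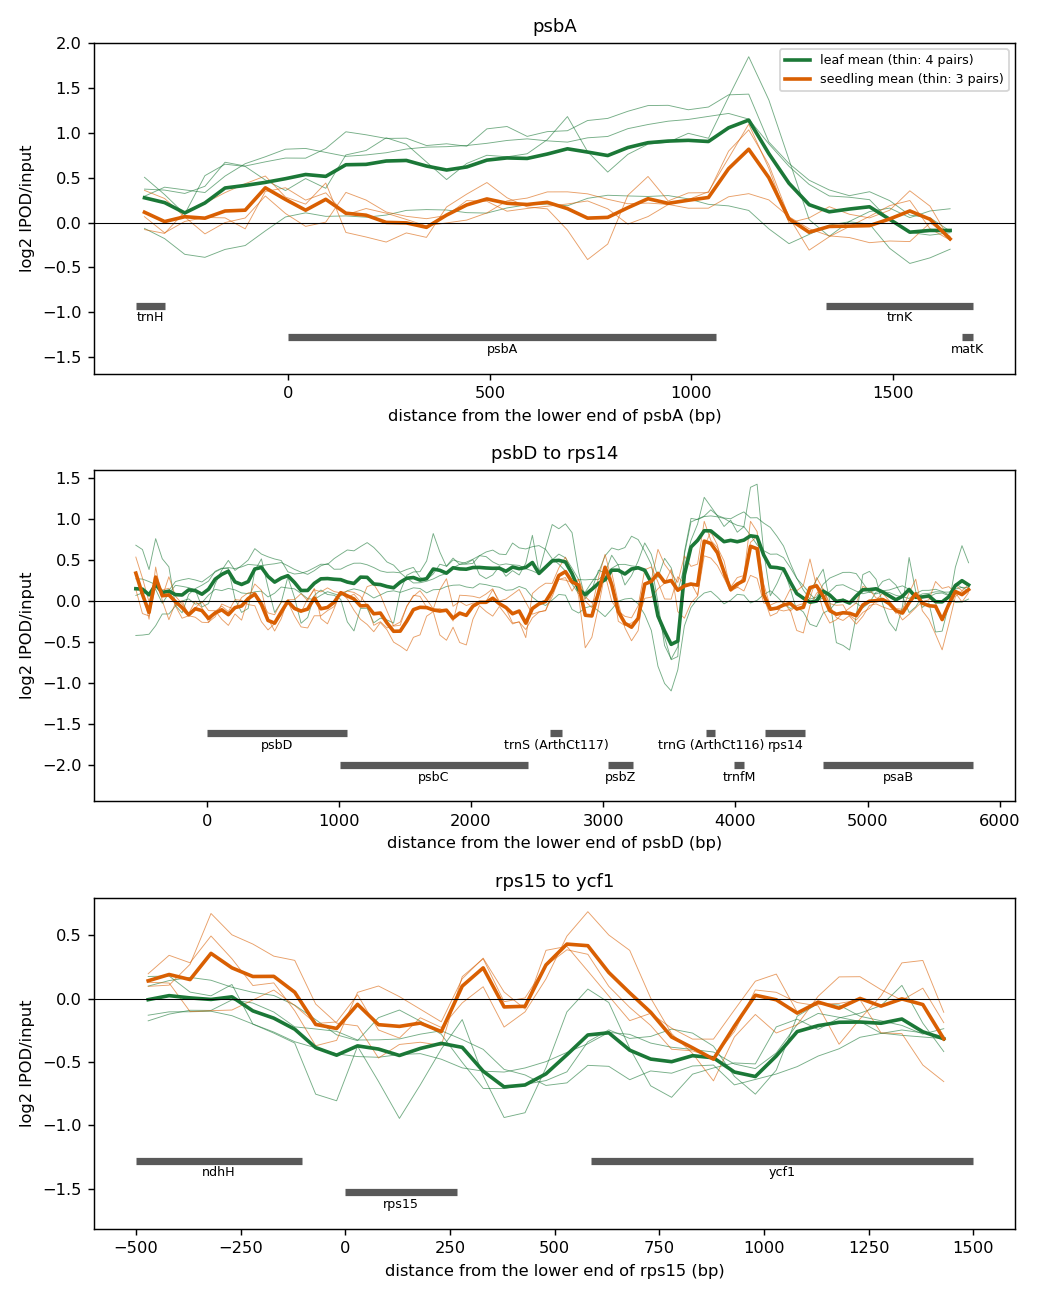
Log2 IPOD/input in 50 bp bins along 3 loci, by distance in bp from the lower end of psbA, psbD and rps15; thick lines are the means of leaf (green, 4 pairs) and Col0 seedling (orange, 3 pairs), thin lines the pairs, grey bars the genes. The mean leaf profile is high beside psbA (0.99) and inside it (0.72), and the mean seedling profile is high beside it (0.64) and near 0.14 inside. From the end of rps15 into ycf1 (123551 to 124050) the leaf profile lies below the seedling profile.

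A second stretch where leaf exceeded seedling at the protein-coding genes ran from psbD through psbC and psbZ to rps14. In part of the gap between psbZ and trnG (ArthCt116) the order of the means was reversed. In the 50 bp bin centred 3514.5 bp from the lower end of psbD, leaf pairs 1 to 4 had -0.71, 0.41, -0.71 and -1.09. The seedling pairs had 0.34, 0.39 and 0.02 there. PsbD and PsbC are the D2 protein of the photosystem II reaction centre and the core antenna protein CP43, PsbZ is a small photosystem II subunit, and rps14 encodes a protein of the small ribosomal subunit. The psbC ratio was 0.52, 0.19, 0.40 and 0.14 in leaf, against -0.28, -0.08 and 0.03 in seedling, with no overlap and a difference of 0.42. The psbD ratio was 0.43, 0.10, 0.41 and 0.10 in leaf, against -0.10, -0.13 and -0.005 in seedling (difference 0.34). It was above 0 in every leaf pair and below 0 in every seedling pair. With libraries centred on their median bin, the seedling pairs had -0.04, 0.01 and 0.03 at psbD. The psbZ ratio was 0.68, 0.36, 0.43 and -0.00 in leaf, against -0.18, -0.20 and -0.15 in seedling (difference 0.54), and that of rps14 was 0.59, 0.15, 0.45 and -0.01 in leaf, against -0.04, -0.15 and -0.04 in seedling (difference 0.37). The groups did not overlap at any of the 4 genes, and leaf pair 4 or leaf pair 2 was the lowest leaf value at each. The limma adjusted p values were 0.902 to 0.987 without the block and 0.155 to 0.256 with it, so none of the 4 differences passed the threshold.

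The tRNA genes inside this stretch did not follow it uniformly. The trnG gene there (ArthCt116) had 1.11, 1.16, 1.04 and 0.12 in leaf and 0.76, 0.82 and 0.52 in seedling, high in both tissues outside leaf pair 4. trnfM, the initiator tRNA gene, had 1.06, 0.85, 0.92 and 0.09 in leaf and 0.23, 0.30 and 0.16 in seedling. Leaf pair 4 lay below all seedling pairs at both tRNA genes, while leaf pairs 1 to 3 lay above them. The whole stretch averaged 0.33 ± 0.22 in leaf (SD, n = 4) and 0.02 ± 0.04 in seedling (SD, n = 3), and the groups overlapped, with leaf pair 4 at 0.01 and seedling pair 3 at 0.06.

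At the resolution of 50 bp, 98 bins (3.82% of 2564) had all leaf ratios above all seedling ratios and 130 (5.07%) had all leaf ratios below, in 53 and 81 runs. With 4 and 3 values in random order, each of these outcomes arises in 1 of 35 arrangements (0.0286). Of the 5 runs with the largest summed excess in leaf, 4 lay in psbC, psbZ and psbD. The longest held 600 bp of psbC (34551 to 35150), where leaf had 0.57, 0.39, 0.46 and 0.17 and seedling -0.26, -0.06 and 0.02. The others were a further 400 bp of psbC (34101 to 34500, difference 0.46), 200 bp at psbZ (35801 to 36000, difference 0.61), 250 bp at the lower end of psbD (32701 to 32950, difference 0.41) and 200 bp at trnW (66151 to 66350, difference 0.36). No bin passed the adjusted threshold in either direction (0.0%); at an unadjusted p under 0.05 there were 37 higher and 11 lower bins without the block (1.44% and 0.429%), and 130 higher and 136 lower with it (5.07% and 5.3%).

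Over the 111 genes, 9 (8.11%) had all leaf ratios above all seedling ratios and 3 (2.7%) had all below. The 9 were psbA, psbZ, psbC, trnW, rps14, psbD, psbF, psaC and atpE, in order of their differences, which ran from 0.58 to 0.12. With libraries centred on their median bin 5 of the 9 kept groups that did not overlap (psbZ, psbC, psbD, psbF and psaC), and of the 3 lower genes rpl36 and rpl22 did. Of the 9, trnW, the tryptophan tRNA gene, had 0.37, 0.14, 0.36 and 0.11 in leaf and -0.25, 0.03 and -0.23 in seedling. psbF, a cytochrome b559 subunit of photosystem II, had 0.01, 0.13, 0.08 and 0.12 in leaf and -0.01, -0.11 and -0.05 in seedling. The differences at psbF (0.14), psaC (0.13) and atpE (0.12) were small beside those at psbA and psbZ. limma called 0 of 111 genes (0.0% in each direction), both without and with the leaf block; at an unadjusted p under 0.05 it gave 4 higher (3.6%: psbA, psbC, psbD and trnW) and 0 lower without the block, and 8 higher and 2 lower with it (7.21% and 1.8%).

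These calls depended on which leaf libraries entered. With leaf libraries 1 and 3 alone and the block, 20 genes were higher in leaf (18.0%) and 3 lower (2.7%); with leaf libraries 2 and 4 alone there were 0 of either. Without leaf pair 4 and with the block, 16 genes were higher and 2 lower. Of the 111 genes, 23 and 16 then had groups that did not overlap, in place of 9 and 3 with all pairs. With fewer leaf pairs random order gives such groups more often, and leaf pair 4 had the flattest profile. psbA differed by 0.83 with leaf libraries 1 and 3 (adjusted p 0.000157 with the block) and by 0.33 with leaf libraries 2 and 4 (adjusted p 0.996 with the block). The direction at psbA, psbZ, psbC, psbD, rps14 and trnW was the same with either set of leaf libraries. That follows from how these genes were chosen, since all their leaf ratios lay above all their seedling ratios, so it is no separate check. Without the seedling IPOD library of conflicting label, psbA differed by 0.58, psbC by 0.47, psbD by 0.34 and psbZ by 0.51, and 0 genes were called.

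**Figure D3:**
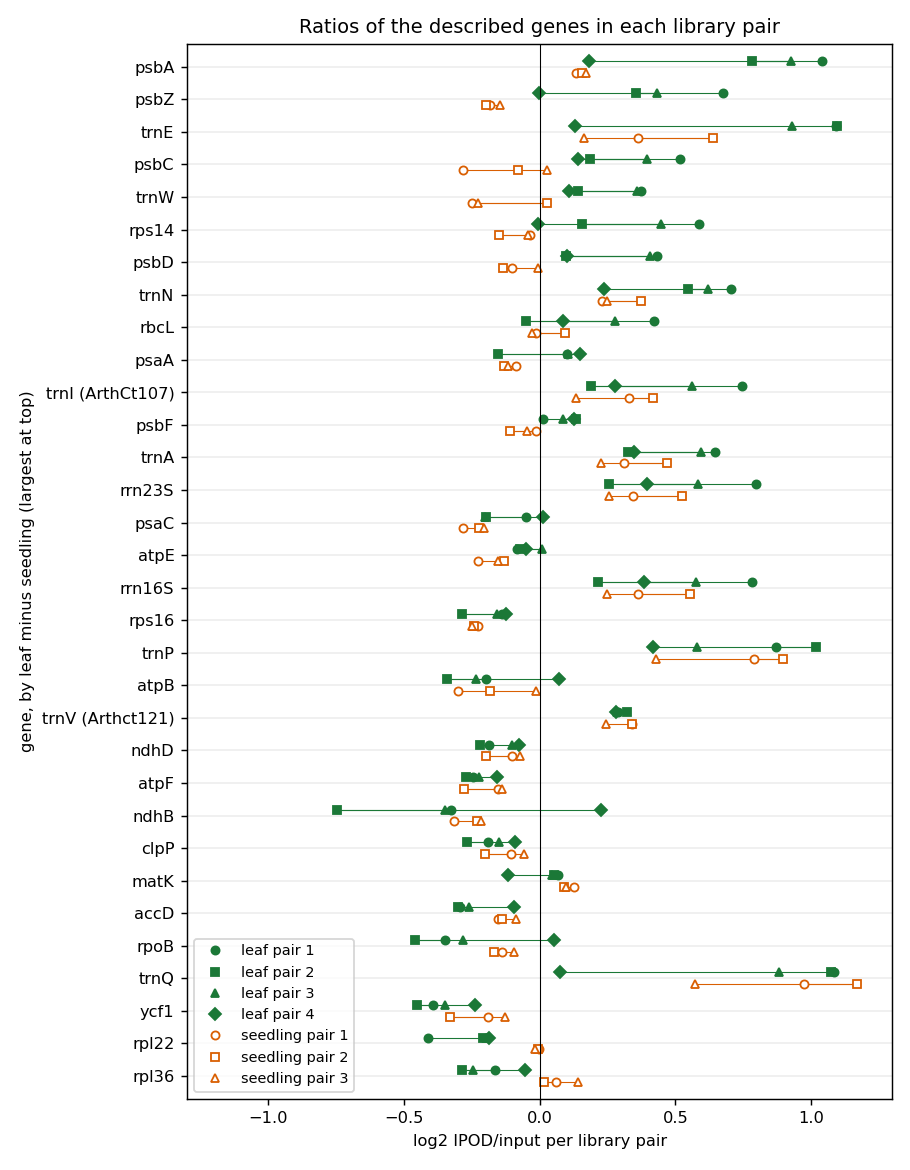
Log2 IPOD/input of the 32 genes described, ordered by leaf minus seedling with the largest at the top; filled green symbols are the 4 leaf pairs and open orange symbols, just below, the 3 Col0 seedling pairs. At psbA, psbZ, psbC, trnW, rps14 and psbD all green symbols lie right of all orange ones, at rpl22 and rpl36 all lie left, and leaf pair 4 (diamonds) is the leaf value nearest 0 at trnE and trnQ.

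Among the protein-coding groups, photosystem II genes, photosystem I genes and genes known to be served mainly by the plastid-encoded polymerase had a positive median difference between leaf and seedling. Of the 15 photosystem II genes, 11 had a higher mean in leaf, and their median difference was 0.10, against -0.02 over all 111 genes. Without the 5 non-overlapping members psbA, psbZ, psbC, psbD and psbF the median difference of the other 10 was 0.05, and their median ratio was -0.04 in leaf and -0.04 in seedling. Of the 7 photosystem I genes, 4 had a higher mean in leaf, with a median difference of 0.08. Of all 111 genes, 49 had a higher mean in leaf. The median ratio of the photosystem I genes was no higher in leaf (-0.09) than in seedling (-0.08). All 9 genes of the plastid-encoded polymerase list (psbA, psbB, psbC, psbD, psbE, psaA, psaB, psaC and rbcL) had a higher mean in leaf, by a median of 0.16. In leaf pairs 1 to 4 the median ratio of the 9 was 0.21, -0.16, 0.21 and 0.10, and in the seedling pairs -0.09, -0.12 and -0.03; leaf pair 2 lay below all seedling pairs. None of the 9 was called, and 3 had an unadjusted p under 0.05 without the block.

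At rbcL, psbE, psaA and psbB, as at psbA, the flank on the promoter side was higher than the gene in leaf pairs 1 to 3. Beside rbcL, the large subunit of the carbon-fixing enzyme Rubisco, the 150 bp facing atpB (54801 to 54950) had 0.70, 0.94, 0.67 and -0.06 in leaf and 0.56, 0.25 and 0.14 in seedling. The rbcL gene itself had 0.42, -0.05, 0.28 and 0.09 in leaf and -0.01, 0.09 and -0.03 in seedling. The flank was above the gene in both tissues except in leaf pair 4, and the groups overlapped at both.

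Beside psbE, another cytochrome b559 subunit gene, the flank on the promoter side (64351 to 64500) had 1.00, 1.38, 0.74 and 0.03 in leaf and 0.73, 0.43 and 0.17 in seedling. Beside psaA, which encodes a photosystem I reaction centre protein, the corresponding flank (41901 to 42050) had 0.96, 0.98, 0.82 and -0.04 in leaf and -0.15, -0.18 and 0.34 in seedling. Leaf pairs 1 to 3 lay above all seedling pairs at the psaA flank, and leaf pair 4 lay among them. Over the psaA gene the ratios were 0.10, -0.16, 0.10 and 0.15 in leaf and -0.09, -0.13 and -0.12 in seedling. Beside psbB, the gene of the core antenna protein CP47, the flank on the promoter side (72201 to 72350) had 0.38, 1.05, 0.42 and 0.01 in leaf and 0.25, 0.13 and -0.11 in seedling. Not every gene had such a flank: that of psbD (32551 to 32700) had 0.08, 0.14, 0.26 and -0.01 in leaf and -0.09, -0.21 and -0.08 in seedling. Beside psaC, an iron-sulfur protein of photosystem I, the flanks on both sides (117151 to 117300 and 117601 to 117750) were below 0 in all 7 pairs.

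Leaf lay below seedling in some runs at the far end of the small single-copy region. It did not do so throughout: at 124151 to 124200, inside ycf1, the means were -0.47 in leaf and -0.48 in seedling. The strongest such run covered the gap between rps15 and ycf1 with the adjoining end of ycf1 (123551 to 124050). Its ratio was -0.55, -0.43, -0.44 and -0.50 in leaf, against 0.13, 0.12 and 0.20 in seedling. Every leaf pair was below 0 and every seedling pair above it, leaf pair 4 included, and the means were -0.48 ± 0.06 in leaf (SD, n = 4) and 0.15 ± 0.04 in seedling (SD, n = 3). The input level of this run, as depth over the library mean, was 1.06, 0.62, 1.14 and 0.81 in leaf and 0.35, 0.33 and 0.33 in seedling. Its input was lower in every seedling library than in any leaf library. With the trend of each ratio on its input level removed, the run had -0.38, -0.46, -0.31 and -0.38 in leaf and 0.02, 0.11 and 0.05 in seedling.

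The other long runs with leaf below seedling were a stretch inside ycf1 (125001 to 125300), the junction of rpl22 and rps19 (83901 to 84050), an intergenic stretch (112701 to 112850) and the junction of rpl14 and rpl16 (81001 to 81200), with differences of -0.41, -0.61, -0.56 and -0.40. In all 4 the mean input level was lower in seedling (0.43, 0.25, 0.21 and 0.59) than in leaf (0.91, 0.80, 0.88 and 0.89). ycf1 encodes a large protein of the inner envelope, and the rpl and rps genes encode proteins of the large and small ribosomal subunit.

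As whole genes, rpl36, rpl22 and matK had all leaf ratios below all seedling ratios. This share of the 111 genes (2.7%) is close to the 1 in 35 that random order gives. The rpl36 ratio was -0.17, -0.29, -0.25 and -0.06 in leaf and 0.06, 0.02 and 0.14 in seedling (difference -0.26). It was below 0 in every leaf pair and above 0 in every seedling pair. With the trend on input level removed, leaf pair 1 had 0.04 at rpl36. The rpl22 ratio was -0.41, -0.21, -0.20 and -0.19 in leaf, against -0.00, -0.01 and -0.02 in seedling (difference -0.24). The matK gene, a splicing factor gene inside the trnK intron, had 0.07, 0.05, 0.04 and -0.12 in leaf and 0.13, 0.09 and 0.10 in seedling (difference -0.09). None passed the limma threshold, with adjusted p values of 0.987 without the block and 0.242, 0.355 and 0.654 with it.

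The genes called above input in both tissues were tRNA genes. With the leaf block, limma called 34 genes above input in leaf (30.6%) and 29 below (26.1%), and 7 above (6.31%) and 2 below (1.8%) in seedling. With libraries also centred on their median bin it called 38 above and 7 below in leaf, and 1 above and 0 below in seedling; over bins the calls above and below were 448 and 60 in leaf and 61 and 3 in seedling when centred, in place of 386 and 412 in leaf and 69 and 27 in seedling. The 7 seedling genes above input were all among the 34 of leaf, which is 20.6% of the leaf genes: trnQ, trnT, trnG (ArthCt116), trnM, trnP, trnV (Arthct121) and trnL (Arthct122), all tRNA genes. rps16 was the 1 gene called below input in both tissues. By bin, 216 had a ratio above 0 in all 7 pairs (8.42%) and 325 one below 0 in all 7 (12.7%). Of the calls with the block, 64 bins were above input in both (2.5% of all bins, 16.6% of the leaf bins and 92.8% of the seedling bins). Of these 64 bins, 28 lay between genes, as did 703 of all 2564 bins. Bins called below input in both numbered 11 (0.429% of all bins, 2.67% of the leaf bins and 40.7% of the seedling bins). Without the block, the fit called 3 genes above input in leaf and 0 in seedling, so 0 were shared. With the block but without the seedling pair of conflicting label, 3 genes were shared above input and 0 below; without seedling pair 1, or without seedling pair 2, there were 0 of either, and without leaf pair 4 there were 13 above and 5 below.

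**Figure D4:**
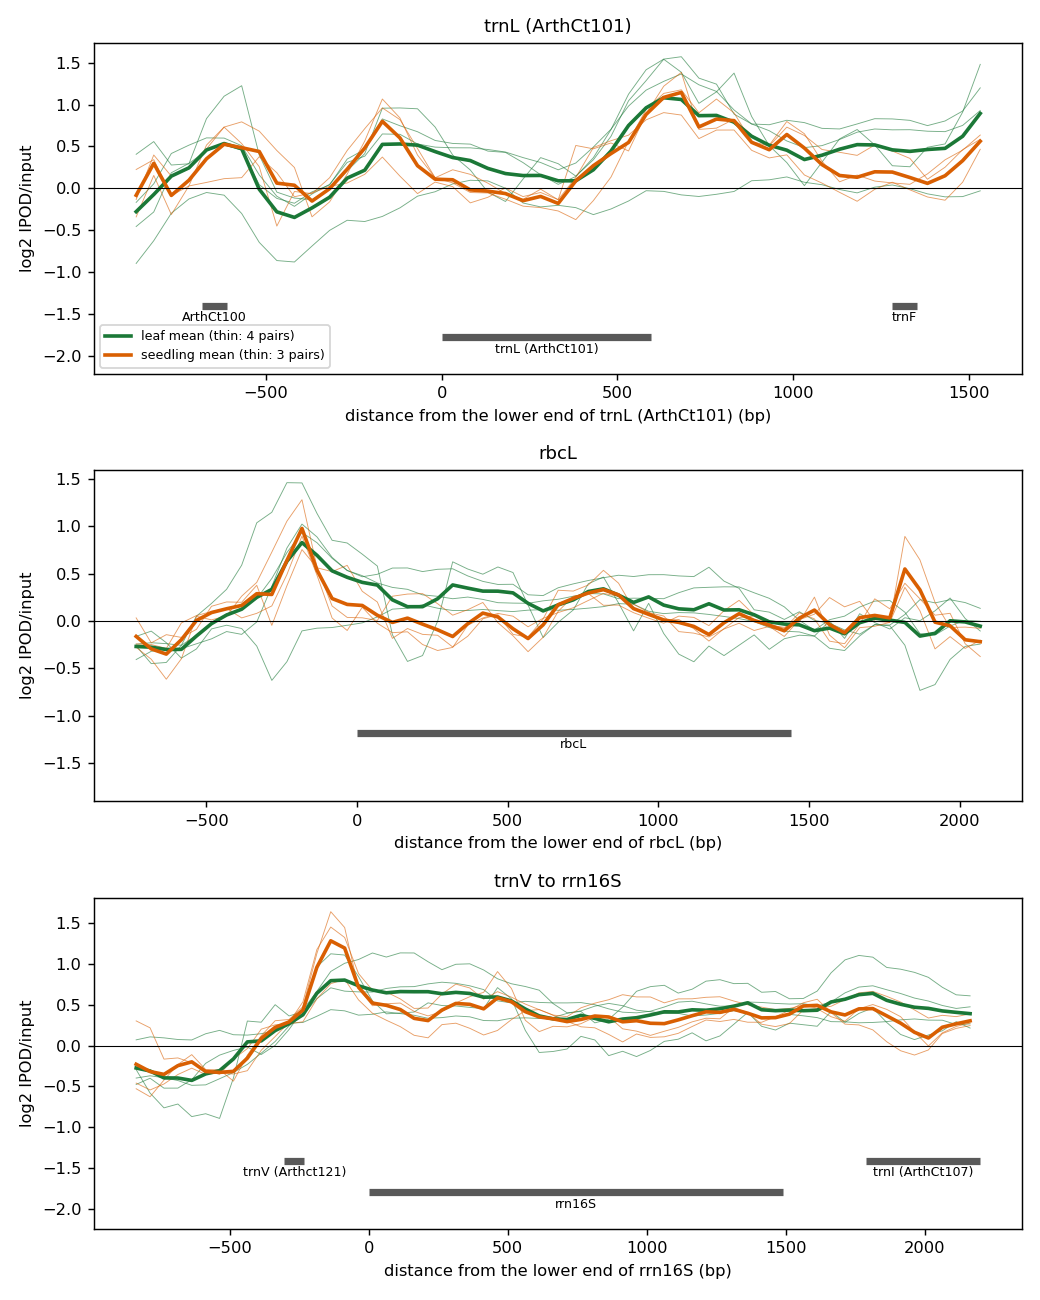
Log2 IPOD/input in 50 bp bins by distance in bp from the lower end of trnL (ArthCt101), rbcL and rrn16S; thick lines are the means of leaf (green, 4 pairs) and Col0 seedling (orange, 3 pairs), thin lines the pairs, grey bars the genes. Peaks beside trnL, rbcL and rrn16S coincide in leaf and seedling, and the thin green line near 0 beside trnL is leaf pair 4.

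At trnQ, the glutamine tRNA gene, the ratio was 1.09, 1.08, 0.88 and 0.07 in leaf and 0.97, 1.17 and 0.57 in seedling. At trnP, the proline tRNA gene, it was 0.87, 1.02, 0.58 and 0.42 in leaf and 0.79, 0.90 and 0.43 in seedling. Both were above 0 in all 7 pairs, and the leaf and seedling ranges overlapped almost fully outside leaf pair 4. The valine gene of the inverted repeat, trnV (Arthct121), was the steadiest, with 0.29, 0.32, 0.28 and 0.28 in leaf and 0.34, 0.34 and 0.24 in seedling. Its difference between leaf and seedling was -0.01, with a standard error of 0.32 in the fit without the block.

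The longest run shared above input lay beside trnL (ArthCt101), a leucine tRNA gene with an intron (47451 to 47900). It had 1.15, 1.05, 1.02 and -0.00 in leaf and 0.85, 0.88 and 0.64 in seedling, with means of 0.80 and 0.79. A second lay between trnV and rrn16S (100751 to 101050), where the rRNA operon begins, with 0.87, 0.83, 0.60 and 0.38 in leaf and 0.98, 1.01 and 0.56 in seedling. The next 3 were at trnP, trnQ and trnA, with differences between leaf and seedling of -0.00, -0.15 and 0.04. Leaf pair 4 was the lowest of the 7 at each of the runs beside trnL, at trnV to rrn16S, at trnP and at trnQ. The shared runs below input were shorter, at most 100 bp, and the first of them lay inside ycf1 (127501 to 127600), with -0.48, -0.82, -0.47 and -0.29 in leaf and -0.69, -0.74 and -0.38 in seedling.

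All 30 tRNA genes had a mean ratio above 0 in leaf and 27 did in seedling, and 16 were above 0 in all 7 pairs (20 of all 111 genes were, 18.0%). In the inverted repeat, the asparagine gene trnN had 0.70, 0.55, 0.62 and 0.24 in leaf and 0.23, 0.37 and 0.25 in seedling, and the alanine gene trnA 0.64, 0.32, 0.59 and 0.35 in leaf and 0.31, 0.47 and 0.23 in seedling. Their median ratio was 0.44 in leaf and 0.23 in seedling, and 23 of the 30 had the higher mean in leaf, by a median of 0.19. By pair, the tRNA median was 0.56, 0.56, 0.56 and 0.07 in leaf and 0.23, 0.33 and 0.16 in seedling, so leaf pairs 1 to 3 lay above and leaf pair 4 below all seedling pairs. The glutamate gene trnE had 1.09, 1.09, 0.93 and 0.13 in leaf and 0.36, 0.64 and 0.16 in seedling (difference 0.42, limma adjusted p 0.650 with the block). The 5 tRNA genes reported to need the sigma factor SIG2 in Arabidopsis (trnE, trnY, trnD, trnM and the single-copy trnV) had a median difference of 0.34, and the other 25 had 0.15; trnM went the other way, with a difference of -0.21.

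**Figure D5:**
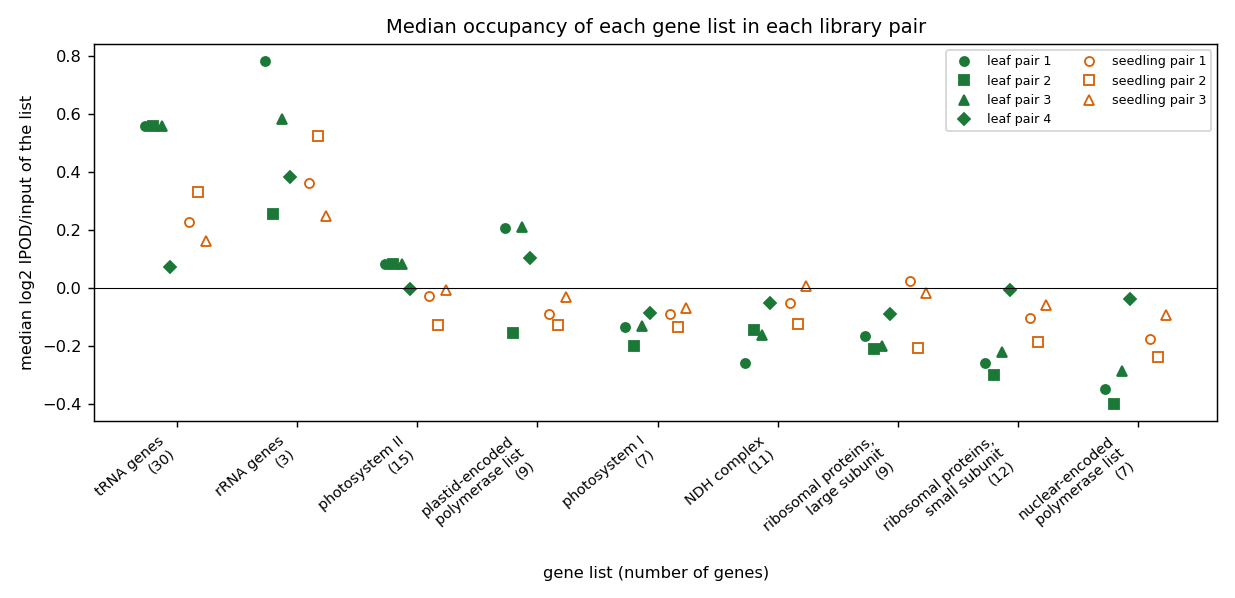
Median log2 IPOD/input of each gene list in each library pair, with the 4 leaf pairs (filled green) left of the 3 Col0 seedling pairs (open orange) and the number of genes in brackets. Leaf pairs 1 to 3 share a tRNA median of 0.56 while leaf pair 4 has 0.07, and the nuclear-encoded polymerase list lies below 0 in all pairs.

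The rRNA genes were above input in all 7 pairs. rrn16S, the RNA of the small ribosomal subunit, had 0.78, 0.21, 0.58 and 0.38 in leaf and 0.36, 0.55 and 0.25 in seedling. rrn23S, of the large subunit, had 0.80, 0.26, 0.58 and 0.40 in leaf and 0.34, 0.52 and 0.26 in seedling. Leaf pairs 1 and 3 had the highest values and leaf pair 2 the lowest or nearly so, and the groups overlapped. The input level of rrn16S was 0.35, 3.26, 0.42 and 1.28 in leaf and 3.15, 2.36 and 2.90 in seedling, so the leaf pairs with high ratios were those with low rRNA input. With the trend on input level removed, rrn16S had -0.00, 0.18, -0.04 and 0.35 in leaf and 0.29, 0.40 and 0.18 in seedling.

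Genes known for the nuclear-encoded polymerase were below the genome average in both tissues. The 7 of that list (rpoB, rpoC1, rpoC2, accD, clpP, ycf1 and ycf2) had a median ratio of -0.26 in leaf and -0.18 in seedling, and all 7 had the lower mean in leaf (6 when centred), with a median difference of -0.09. accD, a subunit of the fatty acid synthesis enzyme acetyl-CoA carboxylase, had -0.29, -0.30, -0.26 and -0.10 in leaf and -0.15, -0.14 and -0.09 in seedling. rpoB, a core subunit of the plastid-encoded polymerase, had -0.35, -0.46, -0.28 and 0.05 in leaf and -0.14, -0.17 and -0.09 in seedling. Leaf pairs 1 to 3 were below all seedling pairs at both genes and leaf pair 4 was not. clpP, a subunit of a stromal protease, had -0.19, -0.27, -0.15 and -0.09 in leaf and -0.11, -0.20 and -0.06 in seedling, with overlap. The ycf1 gene as a whole had -0.39, -0.45, -0.35 and -0.24 in leaf and -0.19, -0.33 and -0.13 in seedling, below 0 in all pairs. With the block, all 7 were called below input in leaf (4 when centred) and 0 of 7 in seedling. Over all 111 genes, 29 were called below input in leaf (26.1%, 7 genes when centred) and 2 in seedling (1.8%). With so few seedling calls, the 0 of 7 does not set this list apart. The difference between leaf and seedling was called for none of the 7.

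The remaining protein groups had medians below 0 in both tissues; with libraries centred on their median bin, the median of photosystem I in leaf and those of the large subunit, NDH and cytochrome b6f groups in seedling were above 0. The 12 genes of the small ribosomal subunit had medians of -0.20 in leaf and -0.11 in seedling, the 9 of the large subunit -0.18 in leaf and -0.05 in seedling, and the 11 of the NDH complex, which cycles electrons around photosystem I, -0.13 in leaf and -0.04 in seedling. All 11 NDH genes had the lower mean in leaf (9 when centred), and none of their differences was called. ndhB, which lies in the inverted repeat, varied most of the 11 among leaf pairs, with -0.33, -0.75, -0.35 and 0.23 in leaf and -0.32, -0.23 and -0.22 in seedling. The 6 ATP synthase genes had -0.18 in leaf and -0.16 in seedling, and the 6 of the cytochrome b6f group -0.14 in leaf and -0.05 in seedling. The 7 of photosystem I had -0.09 in leaf and -0.08 in seedling. At atpF the groups overlapped, with -0.25, -0.27, -0.22 and -0.16 in leaf and -0.16, -0.28 and -0.14 in seedling. atpB, the beta subunit gene, had -0.20, -0.34, -0.24 and 0.07 in leaf and -0.30, -0.18 and -0.01 in seedling, with leaf pair 4 alone above 0. rps16, the gene called below input in both, had -0.14, -0.29, -0.16 and -0.12 in leaf and -0.23, -0.24 and -0.25 in seedling.

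The difference in ratio moved with the difference in input. Over the 111 genes, r between leaf minus seedling ratio and leaf minus seedling input level was -0.49, and over the 2564 bins it was -0.46; both quantities use the same input libraries. With the trend of each ratio on its input level removed, 7 genes had all leaf ratios above all seedling ratios, of which psbD, psbC, trnW and psaC were among the 9 named above; the groups overlapped at the other 5. Of rpl36, rpl22 and matK, rpl36 alone kept all leaf ratios below all seedling ratios. psbA then had 1.20, 1.05, 1.07 and 0.19 in leaf and 0.33, 0.35 and 0.28 in seedling, so that leaf pair 4 lay below the seedling pairs. All 5 runs with leaf below seedling described above still had all leaf ratios below all seedling ratios, and of the 5 runs with leaf above, those at psbC, psbZ and psbD kept their order and that at trnW overlapped. Of the 20 genes above 0 in all 7 pairs, 17 were so after this step, and of the 19 below 0 (17.1%), all protein-coding, 6 were.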

How the data were processed

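IPOD and input libraries of plastid DNA were compared in 8 leaf and 6 Col0 seedling samples, grouped by title. The authors deposited an unscaled coverage signal, whole-number read depth per base of the plastid genome on TAIR10 per the file headers; it is not a count of reads, so no count model was used. Trim Galore 0.4.1, Bowtie2 2.2.8.9 and bedtools 2.25.0 are named per the submitters' processing notes; how reads were placed between the inverted repeat copies is not given in the sources used here.

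Genes came from a RefSeq table of TAIR10.1, used for names and places only, after its inverted repeat was checked to mirror at the same positions as the depth of each of the 20 libraries. The second repeat copy and genes under 70 bp were left out. Genes include their introns. Mean depth per gene or 50 bp bin was divided by the library mean, 10% of the median bin was added and log2 was taken. limma 3.58.1 in R 4.3.3 (lmFit, eBayes) fitted the 4 groups of 14 libraries without a block, with a call where the p-value, adjusted by Benjamini-Hochberg across every gene or every bin, was under 0.05; the script was tested on simulated data. The labels do not say that replicates were separate cultures, so p-values measure the spread between these libraries.

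Over bins, deviations of same-numbered IPOD and input libraries from their group means correlated at 0.63 to 0.92 in leaf and 0.02 to 0.26 in seedling. Each leaf IPOD library correlated most with the input of its own number. IPOD 1 with input 3 still reached 0.80, and IPOD 3 with input 1 reached 0.88. The values therefore do not settle which of leaf libraries 1 and 3 belong together. The fit with the leaf number as a block is given beside each result it changes. Seedling IPOD 1 and IPOD 2 also correlated most with the input of their own number, but only at 0.26 and 0.22. Seedling IPOD 3 had 0.02 with its own input and 0.07 with input 2. The values therefore do not settle the pairing of the seedling libraries. Seedling ratios per pair, their SDs and the counts over pairs thus depend on a match by number alone.

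The genes named were those called, then up to 10 per direction whose 4 leaf ratios all lay above or all below the 3 seedling ratios, 8 and 5 genes whose smallest ratio was farthest above or below 0 among those of 1 sign in all 7 pairs, and a fixed set of 13; trnT, trnfM, trnG (ArthCt116) and the flanks were added after their values were seen. The runs described are the 5 with the largest summed difference per direction. Members and lists were chosen with earlier results of these data known. Removal of the trend on input level (lowess over bins) and the alternatives for the non-overlap counts were chosen after seeing the data. Alternatives varied scaling, pseudocount (1% and 50% of the median bin), a depth minimum of 20, bin size (100 bp), variance models, the leaf libraries used, blocks and leaving out libraries. No sequences are printed, since no genome of the files' build was used here.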

Additional observations from a re-analysis of the deposited data

Results flagged for a closer look

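At psbD, psbF and rpl36 every leaf pair and every seedling pair lay on opposite sides of 0. With libraries centred on their median bin, this split held at rpl36 only. The seedling pairs then had -0.04, 0.01 and 0.03 at psbD and 0.04, 0.03 and -0.01 at psbF. With the trend on input level removed, psbD was above 0 in all 7 pairs. Seedling pairs 1 and 3 were then above 0 at psbF (0.18 and 0.07), as was leaf pair 1 at rpl36 (0.04). The leaf minus seedling difference in log2 ratio was 0.34 at psbD (0.26 ± 0.18 in leaf, n = 4, and -0.08 ± 0.07 in seedling, n = 3), 0.14 at psbF (0.09 ± 0.05 in leaf and -0.06 ± 0.05 in seedling) and -0.26 at rpl36 (-0.19 ± 0.10 in leaf and 0.07 ± 0.06 in seedling). The limma adjusted p of these differences was 0.987 at each without the block, and 0.256, 0.650 and 0.242 with it.

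In 4 of the genes described, 1 leaf pair stood apart from the other 3, by the gap to its nearest neighbour over the range of the 4. That share was 0.907 at rpl22, where leaf pair 1 was lowest (-0.41), 0.882 at matK and 0.831 at trnE, where leaf pair 4 was lowest (-0.12 and 0.13), and 0.846 at psaA, where leaf pair 2 was lowest (-0.16). Chance gives such a gap in about 1 in 20 groups, and 32 genes were examined.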

How the results depend on the processing

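Counts are given as higher and lower in leaf for the difference, and above and below input for shared loci; without the block every one of these was 0. With the leaf replicate block, shared loci came to 7 and 1 genes and 64 and 11 bins; with a replicate block in both tissues to 5 and 0 genes and 29 and 1 bins; and with the leaf block on libraries centred on their median to 1 and 0 genes and 55 and 1 bins. limma arrayWeights, which gives libraries unequal weight, called differences for 18 and 5 genes and 248 and 235 bins, and shared loci for 16 and 12 genes and 110 and 161 bins. Leaf libraries 1 and 3 alone gave differences for 18 and 3 genes and 146 and 98 bins, with shared loci of 19 and 11 genes and 202 and 137 bins; adding the leaf replicate block gave 20 and 3 genes, 135 and 92 bins, and shared loci of 19 and 10 genes and 187 and 122 bins. Leaving out libraries, with or without the block, gave differences for 0 to 16 and 0 to 2 genes and 0 to 94 and 0 to 27 bins, and shared loci of 0 to 13 and 0 to 5 genes and 0 to 141 and 0 to 68 bins; the highest of these came without leaf pair 4 with the block, except the 27 bins, which came without leaf pair 2.

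Genes whose leaf ratios all lay above the seedling ratios numbered 5 in place of 9 with libraries centred on their median, and 9 to 23 when 1 pair was left out; those below numbered 3 to 16. For bins the ranges were 106 to 319 and 140 to 328. With 1 pair fewer, random order gives such groups more often. Genes below 0 in all pairs numbered 7 in place of 19 when centred, 6 with the input trend removed and 19 to 30 without 1 pair; bins numbered 158, 201 and 338 to 645, and bins above 0 221 to 332. Centring moved the median difference over genes from -0.02 to 0.02.

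Of 1120 values for the 32 genes under 35 alternatives each, 995 kept direction and side of the threshold, 41 became called and 84 changed sign. Outside leaving libraries out, trnP was -0.12 with arrayWeights and -0.031 with a pseudocount of 50%, where rrn23S was -0.014 and rrn16S -0.044. ndhD was 0.014 with arrayWeights and 0.0099 centred, where trnV (Arthct121) was 0.019 and atpB 0.022. trnQ was 0.079 with leaf libraries 1 and 3; with leaf libraries 2 and 4, rrn23S was -0.049, rrn16S -0.089, trnI (ArthCt107) -0.061, rbcL -9.9e-06 and atpB 0.029. With libraries left out, the difference ran from -0.24 to 0.042 at matK, -0.26 to 0.20 at trnP, -0.33 to 0.68 at rrn23S, -0.17 to 0.14 at trnV (Arthct121), -0.082 to 0.56 at trnN, -0.21 to 0.54 at trnA, -0.38 to 0.67 at rrn16S, -0.10 to 0.48 at trnI (ArthCt107), -0.14 to 0.083 at atpF, -0.047 to 0.21 at rps16, -0.24 to 0.041 at accD, -0.13 to 0.11 at ndhD, -0.15 to 0.065 at atpB, -0.10 to 0.023 at clpP, -0.22 to 0.10 at ndhB and -0.47 to 0.18 at trnQ. The causes were not tested. The mean depth of leaf IPOD library 2, 54.5, was the smallest of the 14.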
